A study of Callithrix jacchus with 3 samples.

Results

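The genes described here encode the core of the basement membrane: type IV collagen, laminin, the nidogens and perlecan. Of the 10 gene symbols COL4A1, COL4A2, LAMA1, LAMA5, LAMB1, LAMB2, LAMC1, NID1, NID2 and HSPG2, a set taken by name, 9 mapped to an Ensembl marmoset gene ID among the 30811 genes counted. LAMA5, the laminin alpha5 chain, had no mapped ID and was not analysed here. RNA sequencing counts came from replicates 1, 2 and 3 of a single group, EPSC-like cells of the common marmoset (Callithrix jacchus). Per the study's title, they came from attempts to convert embryonic stem cells into extended pluripotent stem cells, which in other species are described as able to form embryonic and extraembryonic tissue. The libraries carry the same sample name with a running number, the labels give no culture medium, passage or feeder layer, and there were no parental or other control cells. The data therefore address which basement membrane genes these cells express, and how the 3 libraries differ. Whether separate cultures were sequenced is not stated, so a p-value here reflects only how far the 3 libraries vary, which may be technical variation.

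A basement membrane is a thin sheet of extracellular matrix under epithelia. Laminin, a trimer of an alpha, a beta and a gamma chain, polymerises on the cell surface, and collagen IV, a triple helix of alpha chains, forms a covalently cross-linked network. Nidogens bind both laminin and collagen IV, and perlecan, a heparan sulfate proteoglycan, is anchored in the sheet. In early mammalian embryos laminin and collagen IV line the epiblast, and the primitive endoderm is a known source of them. Laminins are also used as culture substrates for pluripotent stem cells.

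Total counts were 52327369, 55224475 and 40593244 in replicates 1, 2 and 3, and the 9 genes took 0.252%, 0.251% and 0.154% of them. Replicate 3 stood apart from the others across the transcriptome. Among the 13719 genes that averaged 1 CPM or more (counts scaled to 1e6 per library, with TMM factors), 14.6% were at least 1.5-fold lower in replicate 3 than in replicate 1 and 5.58% at least 1.5-fold higher, while replicate 2 was that far below replicate 1 in 0.743% and that far above it in 0.488%. Values of the 9 genes are therefore given for each library. The pluripotent markers fixed for a check of the label were all called above 1 CPM, 7 of 7, where 78.3% of all genes with a symbol were. Passing a level that most genes pass does not settle the label, and no parental cells were there to compare. POU5F1 stood at 1185 CPM in replicate 3, against 974 and 972 CPM in replicates 1 and 2, while other markers of the list were lower in replicate 3, as given below. POU5F1 encodes OCT4, and its level is uncertain because close copies of the gene may share reads.

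Each of the 9 genes was called above 1 CPM, with adjusted p-values from 1.51e-13 for COL4A1 to 3.34e-11 for LAMB1 (quasi-likelihood test of edgeR with Benjamini-Hochberg adjustment, n = 3). By the same rule 56.0% of all 23432 genes tested were above 1 CPM, and 78.3% of those with a symbol. Mean levels ran from 66.9 CPM for NID1 to 478 CPM for COL4A1. CPM does not correct for transcript length and no transcript lengths were used here, so the order of levels between genes is not read. The calls were the same at a level of 5 CPM, which 44.5% of all genes tested passed. None of the 9 was below 1 CPM, where 37.8% of all genes tested and 16.1% of those with a symbol were.

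COL4A1 and COL4A2 encode the alpha1 and alpha2 chains of the most widespread form of collagen IV. COL4A1 (ENSCJAG00000014430) stood at 354 CPM in replicate 3, against 544 and 536 CPM in replicates 1 and 2, with a mean of 478 ± 108 CPM (SD, n = 3). COL4A2 (ENSCJAG00000014238) stood at 121 CPM in replicate 3, against 216 and 204 CPM in replicates 1 and 2, with a mean of 180.4 ± 51.8 CPM (SD, n = 3). For both chains replicates 1 and 2 were close together and replicate 3 was lower than both. The RefSeq gene table of assembly calJac240_pri lists the pair as neighbours with 0 genes between them. In mammals the 2 genes are known to be transcribed away from each other from a shared promoter region. Their count ratio, COL4A2 to COL4A1, was 0.342 in replicate 3 (95% counting interval 0.331 to 0.353), against 0.397 in replicate 1 (0.388 to 0.406) and 0.381 in replicate 2 (0.372 to 0.389). Transcript length cancels when such a ratio is compared between libraries. The ratio in replicate 3 was thus 0.861 times that in replicate 1 and 0.897 times that in replicate 2, beyond counting error, whereas the 2 levels themselves shifted further.

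LAMA1, which encodes the alpha1 chain of the laminin of early embryos, had 4486 counts in replicate 3, against 11620 and 11560 counts in replicates 1 and 2. On the CPM scale LAMA1 (ENSCJAG00000015553) stood at 110.0 in replicate 3, against 222 and 210.2 in replicates 1 and 2, with a mean of 181 ± 61.6 CPM (SD, n = 3). LAMB1 (ENSCJAG00000016477), the beta1 chain, stood at 75.1 CPM in replicate 3, against 146 and 154 CPM in replicates 1 and 2, and averaged 125 ± 43.4 CPM (SD, n = 3). These 2 genes had the largest relative spread among the 9, with coefficients of variation of 34.1% and 34.7%. LAMC1 (ENSCJAG00000004998), the gamma1 chain that most laminins share, stood at 223 CPM in replicate 3, against 421 and 415 CPM in replicates 1 and 2, and averaged 353 ± 112 CPM (SD, n = 3). The 3 chains of laminin-111 were therefore each lower in replicate 3 than in both other libraries. The ratios of replicate 3 to replicates 1 and 2 were 0.495 and 0.523 for LAMA1, 0.514 and 0.488 for LAMB1, and 0.530 and 0.538 for LAMC1.

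LAMB2 (ENSCJAG00000003674), the beta2 chain, which is known from the neuromuscular junction and the kidney glomerulus, departed least from the other libraries. It stood at 195 CPM in replicate 3, against 248 and 243 CPM in replicates 1 and 2, with a mean of 229 ± 29.2 CPM (SD, n = 3) and the lowest coefficient of variation of the 9 genes, 12.8%. The median over all genes of at least 1 CPM was also 12.8%.

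The nidogens are dumbbell-shaped linker proteins with overlapping binding partners. NID1 (ENSCJAG00000017921), which encodes nidogen-1, stood at 52.2 CPM in replicate 3, against 73.4 and 75.3 CPM in replicates 1 and 2, and averaged 66.9 ± 12.8 CPM (SD, n = 3). NID2 (ENSCJAG00000006959), which encodes nidogen-2, stood at 91.7 CPM in replicate 3, against 163 and 164 CPM in replicates 1 and 2, and averaged 139.8 ± 41.7 CPM (SD, n = 3). Replicate 3 was the lowest library for both, by a smaller factor for NID1. HSPG2 (ENSCJAG00000005940), the perlecan gene, stood at 314 CPM in replicate 3, against 483 and 517 CPM in replicates 1 and 2, and averaged 438 ± 109 CPM (SD, n = 3).

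**Figure D1:**
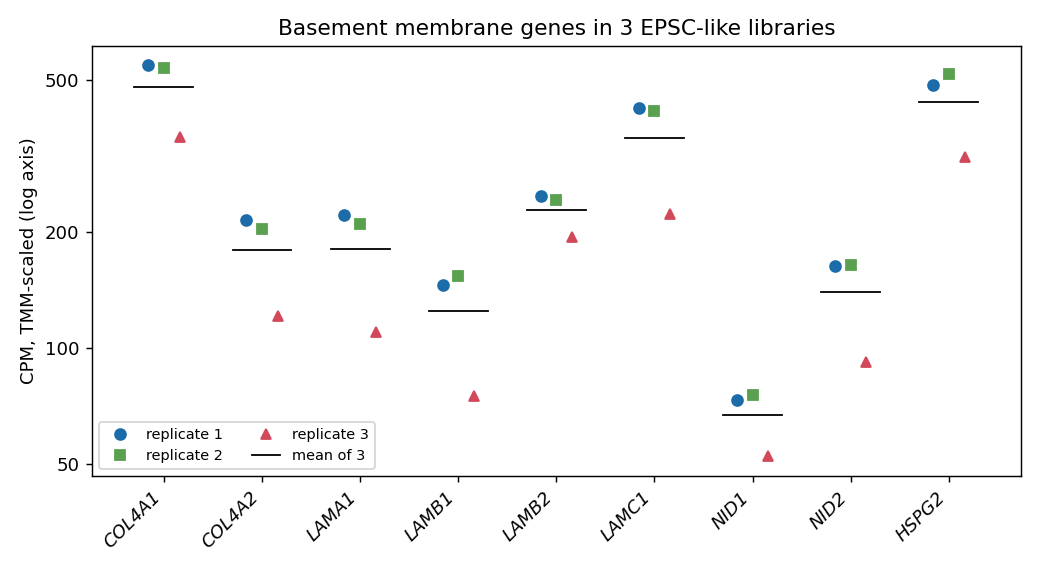
Level of each of the 9 genes in each library, in TMM-scaled CPM on a log axis, with the mean of the 3 libraries as a line. Replicate 3 is the lowest library for all 9 genes, while replicates 1 and 2 lie close together.

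Replicate 3 was lower than both other libraries for 9 of 9 genes, against 50.7% of all genes of at least 1 CPM. At a fold of 1.5, 7 of 9 were lower than in replicate 1 and the same number lower than in replicate 2, where 14.6% and 14.9% of all genes were. These 7 were COL4A1, COL4A2, LAMA1, LAMB1, LAMC1, NID2 and HSPG2, and each was that far below both replicates, as were 12.9% of all genes. The median log2 ratio of the 9 was -0.83 for replicate 3 over replicate 1 and -0.76 for replicate 3 over replicate 2, while the median of all genes was -0.05 for each. These are differences between single libraries, with no test between conditions. The 2 ratios share replicate 3 and are not independent. Less RNA per cell and fewer cells that express a gene cannot be told apart in bulk RNA.

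The lowest ratio to replicate 1 was that of LAMA1, at 0.495 (95% counting interval 0.478 to 0.513), and the lowest to replicate 2 was that of LAMB1, at 0.488 (0.468 to 0.509). Just inside the 1.5-fold limit lay COL4A1, at 0.651 times its level in replicate 1 and 0.660 times that in replicate 2. The counting interval of its ratio to replicate 2, 0.647 to 0.673, spans the limit, so its place there is not settled by the counts. Just outside the limit lay NID1, at 0.712 and 0.694 times, followed by LAMB2 at 0.786 and 0.804 times. The interval of NID1 against replicate 2, 0.658 to 0.731, spans the limit as well. At a fold of 2 only LAMA1 was past the limit against replicate 1 and only LAMB1 against replicate 2, where 5.07% and 5.01% of all genes were. Between replicates 1 and 2 none of the 9 differed by 1.5-fold. Their ratios of replicate 2 over replicate 1 ran from 0.946 for COL4A2 to 1.07 for HSPG2.

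**Figure D2:**
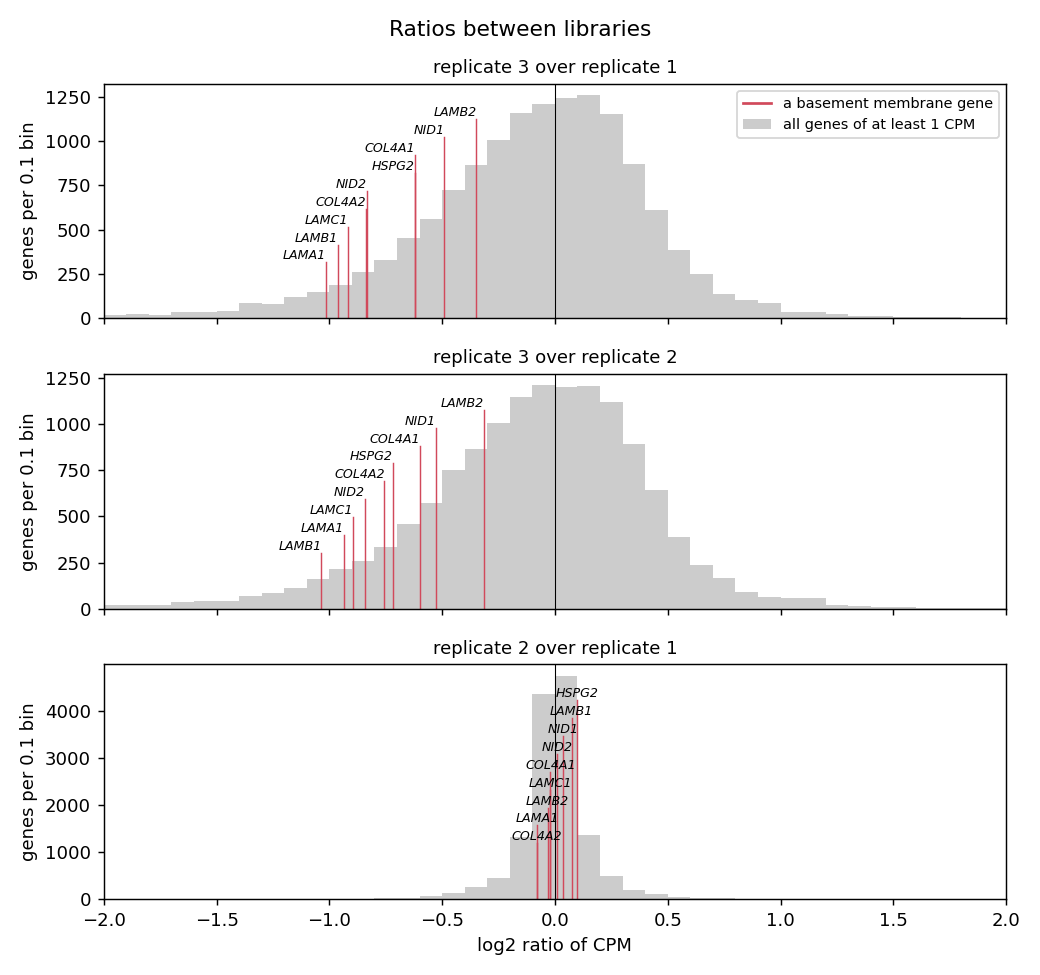
Log2 ratios of CPM between libraries: grey bars count all genes of at least 1 CPM in bins, and red lines mark the 9 basement membrane genes. For replicate 3 over replicate 1 and over replicate 2 all 9 lie left of 0, while for replicate 2 over replicate 1 they lie around 0; genes beyond the axis are not drawn.

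Because all 9 genes were lower in replicate 3, ratios between chains show which shifted together. The ratio of LAMA1 to LAMC1 counts was 0.493 in replicate 3, against 0.528 and 0.507 in replicates 1 and 2. That of LAMB1 to LAMC1 was 0.337 in replicate 3, against 0.347 and 0.371 in replicates 1 and 2. The laminin-111 chains thus kept their ratios to within 10%, since the ratios of replicate 3 were 0.934 and 0.973 times those of replicates 1 and 2 for LAMA1, and 0.969 and 0.907 times for LAMB1. NID2 followed LAMC1 closely as well, with a ratio of 0.411 in replicate 3, against 0.388 and 0.396 in replicates 1 and 2.

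LAMB2 did not follow LAMC1. The ratio of LAMB2 to LAMC1 was 0.874 in replicate 3 (95% counting interval 0.848 to 0.901), against 0.590 in replicate 1 (0.577 to 0.603) and 0.585 in replicate 2 (0.573 to 0.598). LAMB2 competes with LAMB1 for the beta position of a laminin trimer, and their ratio, LAMB2 to LAMB1, was 2.60 in replicate 3, against 1.70 and 1.58 in replicates 1 and 2. The ratio in replicate 3 was 1.53 times that in replicate 1 and 1.65 times that in replicate 2. The ratio of NID1 to NID2 was 0.570 in replicate 3 (0.540 to 0.601), against 0.449 and 0.458 in replicates 1 and 2. HSPG2 and COL4A1 also shifted less than LAMC1. HSPG2 to LAMC1 was 1.41 in replicate 3, against 1.15 and 1.25 in replicates 1 and 2, and COL4A1 to LAMC1 was 1.59 in replicate 3, against 1.29 in each of replicates 1 and 2. COL4A2 lay closer to LAMC1. In replicate 3 it was at 0.560 and 0.592 times its levels in replicates 1 and 2, and LAMC1 at 0.530 and 0.538 times. The intervals cover counting error only, and 1 library a side gives no measure of the spread between samples.

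**Figure D3:**
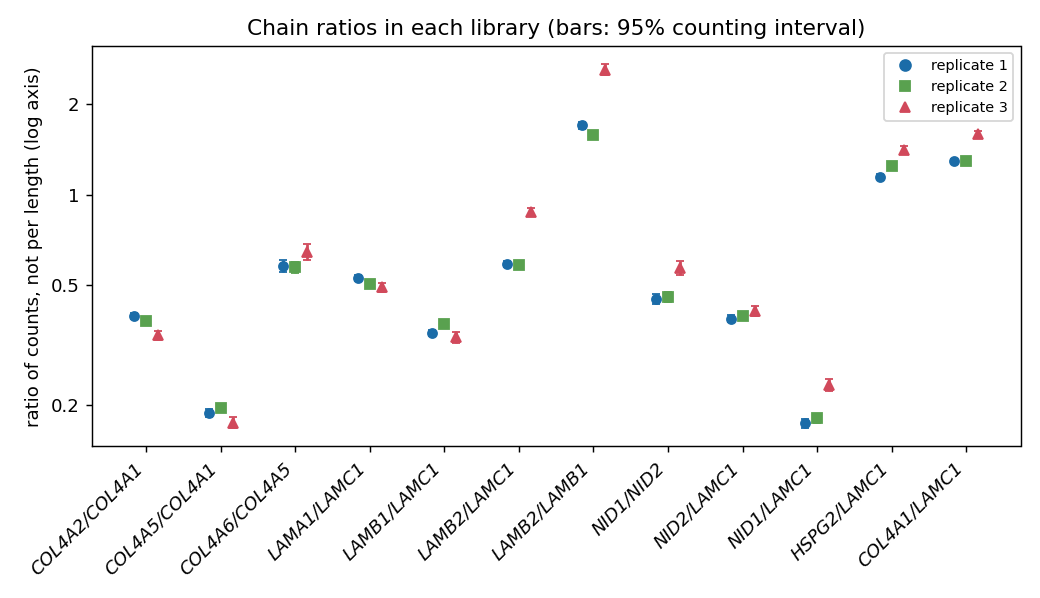
Ratio of counts of 2 chains in each library, on a log axis, not corrected for transcript length, with 95% counting intervals. LAMB2 to LAMB1 is 2.60 in replicate 3, against 1.70 and 1.58 in replicates 1 and 2, while LAMA1 to LAMC1 and LAMB1 to LAMC1 stay close across libraries.

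The other chains of both families bear on which trimers these RNA levels allow. A trimer was taken as allowed where every chain was called above 1 CPM. This says nothing of protein, or of which chains join, and the limit is per count and not per length. Of the other collagen IV chains, 2 of 4 were above 1 CPM and 2 below, where 78.3% of the genes with a symbol passed that level. COL4A5 stood at 62.1 CPM in replicate 3, against 103 and 105 CPM in replicates 1 and 2, and COL4A6 at 40.0 CPM in replicate 3, against 59.6 and 60.5 CPM. COL4A5 was at least 1.5-fold lower in replicate 3 than in both, and COL4A6 than in replicate 2 alone. COL4A3 was below the level with 26 counts in replicate 3, against 13 and 21 counts in replicates 1 and 2 (adjusted p = 0.0138, edgeR quasi-likelihood). The gene missed the threshold when replicate 1 was left out (edgeR adjusted p = 0.0600), while the adjusted p of its other alternatives at 1 CPM ran from 5.07e-05 without replicate 3 to 0.0327 without replicate 2. COL4A4 was below it with 10 counts in replicate 3, against 6 and 6 counts (adjusted p = 0.00316, edgeR quasi-likelihood). Both have so few counts that no difference between libraries is read. Of 3 known collagen IV trimers, 2 were therefore allowed, the alpha1 alpha1 alpha2 form of nearly all basement membranes and the alpha5 alpha5 alpha6 form known from skin and smooth muscle. The alpha3 alpha4 alpha5 form of the kidney glomerulus and lung was not, for want of COL4A3 and COL4A4.

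Of the other laminin chains described, 5 of 6, or 83.3%, were above 1 CPM and 1 below, where 78.3% of the genes with a symbol passed that level. Among alpha chains, LAMA3, known from epithelia such as the epidermis, stood at 25.2 CPM in replicate 3, against 29.4 and 30.0 CPM in replicates 1 and 2. LAMA4, known from endothelium, stood at 4.05 CPM in replicate 3, against 9.98 and 9.57 CPM in replicates 1 and 2. LAMA2, known from muscle, stood at 1.99 CPM in replicate 3, against 4.74 and 4.06 CPM. LAMA4 and LAMA2 were at least 1.5-fold lower in replicate 3 than in both other libraries, and LAMA3 was not. LAMB3, the beta3 chain of epidermal laminin, averaged 3.87 ± 0.15 CPM (SD, n = 3), with ratios of replicate 3 to replicates 1 and 2 of 0.945 and 0.930. LAMC3, the gamma3 chain, averaged 17.3 ± 3.37 CPM. LAMB4, whose product is little studied, was the chain below 1 CPM, with 0 counts in replicate 3, against 8 and 5 counts in replicates 1 and 2 (adjusted p = 0.00796, edgeR quasi-likelihood). The limit that 0 counts allow in replicate 3, taken as 3 counts, was 0.0736 CPM, for counting error only, since the reads carry no molecular identifiers.

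Of 13 laminin trimers known from mammals and considered here, 10 had all chains above 1 CPM, and the other 3, those with the alpha5 chain, could not be judged, because LAMA5 was not analysed. At a level of 5 CPM, 7 trimers had all chains above it. These were laminin-111 and laminin-121, laminin-311 and laminin-321, and laminin-411, laminin-421 and laminin-423. Those with LAMA4 passed narrowly. LAMA4 was above 5 CPM at an adjusted p of 0.0263 (edgeR quasi-likelihood) but stood at 4.05 CPM in replicate 3. The 3 that dropped out were those with LAMA2, which was not distinguished from 5 CPM (adjusted p = 0.109, edgeR quasi-likelihood). LAMB3 was below that level (adjusted p = 0.0363, edgeR quasi-likelihood).

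**Figure D4:**
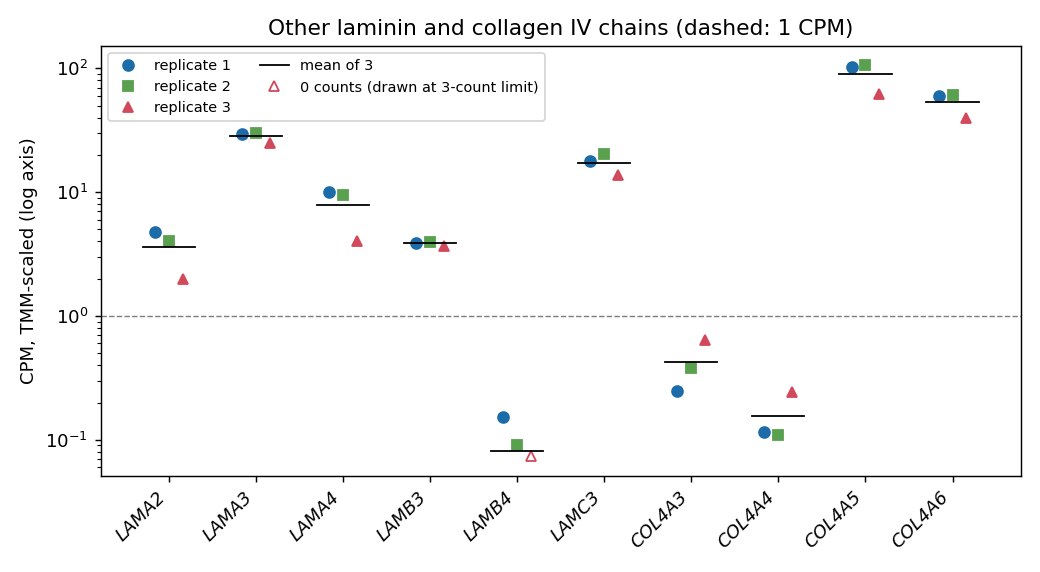
Level of the other laminin and collagen IV chains in each library, in TMM-scaled CPM on a log axis, with the mean as a line and 1 CPM dashed. COL4A3, COL4A4 and LAMB4 lie below the dashed line and the other 7 chains above it; the open symbol is 0 counts, drawn at the limit of 3 counts.

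Genes that make, modify, bind or cut the basement membrane were read from 8 lists, the 2 lists of other chains included. Of 112 genes in these lists, 91 had a mapped ID, and the rest were dropped from every count below. Of the 91, 81, or 89.0%, were above 1 CPM, 5 were below, and the remaining 5 could not be distinguished from that level. The share above 1 CPM among all genes with a symbol was 78.3%, so the counts of genes above that level describe the lists and set none of them apart. Of the 22 other basement membrane components, 18 had an ID, and 18 of 18 were above. AGRN, which encodes the heparan sulfate proteoglycan agrin, averaged 594 ± 97.5 CPM and FBLN2, which encodes the matrix protein fibulin-2, 195 ± 21.8 CPM (SD, n = 3). FN1, the fibronectin gene, stood at 73.6 CPM in replicate 3, against 259 and 242 CPM in replicates 1 and 2. COL15A1 was the lowest at 1.73 ± 0.29 CPM. In this list 7 of 18 genes were at least 1.5-fold lower in replicate 3 than in both others, namely FN1, FRAS1, FREM1, FREM2, MATN2, EGFLAM and SMOC1, where 12.9% of all genes of at least 1 CPM were. COL7A1 and HMCN1, 2 of the 18, were higher in replicate 3 than in both others by less than 1.5-fold. Of all genes of at least 1 CPM, 41.6% were higher by any amount. FRAS1, FREM1 and FREM2 encode proteins of 1 complex of embryonic epithelial basement membranes. FRAS1 was at 0.331 times its level in each of replicates 1 and 2.

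Collagen needs hydroxylases and chaperones in the endoplasmic reticulum to fold. Of the list of such genes 15 of 19, or 78.9%, were above 1 CPM, a share near the 78.3% of all genes with a symbol. SERPINH1, which encodes the collagen chaperone HSP47, averaged 622 ± 46.6 CPM, PPIB, which encodes cyclophilin B, 162 ± 10.9 CPM and COLGALT1, a collagen galactosyltransferase gene, 147 ± 21.2 CPM (SD, n = 3). P4HA3, a prolyl 4-hydroxylase subunit gene, was below 1 CPM at 0.42 ± 0.071 CPM (edgeR adjusted p = 0.00581). LOXL4, COLGALT2 and P3H2 were not distinguished from it, at 1.45 ± 0.54, 1.34 ± 0.37 and 0.51 ± 0.34 CPM. Of the 17 genes of this list with at least 1 CPM, 1 was 1.5-fold lower in replicate 3 than in both others, LOXL4, where 12.9% of all genes were.

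Of the laminin and collagen receptor list, 8 of 10 genes, or 80.0%, were above 1 CPM, a share near the 78.3% of all genes with a symbol. ITGB1, the beta1 integrin subunit gene, stood at 383 CPM in replicate 3, against 474 and 480 CPM in replicates 1 and 2. ITGA6, the alpha6 subunit of laminin receptors of pluripotent cells, stood at 96.6 CPM in replicate 3, against 205 and 206 CPM in replicates 1 and 2. CD151, a tetraspanin gene whose product joins laminin-binding integrins, was highest in replicate 3, at 143 CPM, against 126 and 132 CPM in replicates 1 and 2. DDR2 and ITGA2, both collagen receptor genes, were not distinguished from 1 CPM, at 1.27 ± 0.49 and 0.68 ± 0.68 CPM (SD, n = 3). In this list 4 of 9 genes of at least 1 CPM were 1.5-fold lower in replicate 3 than in both others, namely ITGA1, ITGA3, ITGA6 and DDR2, where 12.9% of all genes were. A further 4 of the 9 were higher in replicate 3 than in both by less than that, where 41.6% of all genes of at least 1 CPM were higher by any amount.

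**Figure D5:**
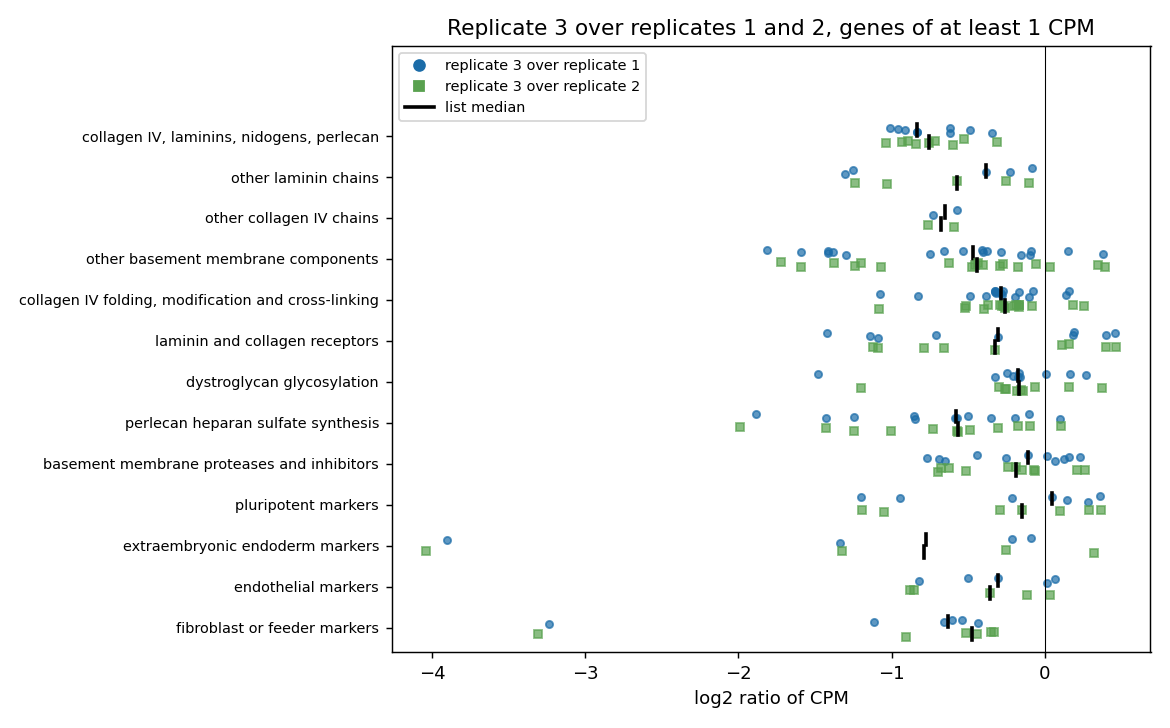
Log2 ratios of CPM of replicate 3 over replicate 1 and over replicate 2 for each gene of at least 1 CPM, by list, with list medians as black bars. The 9 collagen IV, laminin, nidogen and perlecan genes have medians of -0.83 and -0.76, and the pluripotent markers lie on both sides of 0.

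The summed markers of 3 other cell types were lower in replicate 3 as well, although some single markers were not. The 6 extraembryonic endoderm markers with an ID that are reported summed to 12.6 CPM in replicate 3, against 26.5 and 27.2 CPM in replicates 1 and 2. Of these 6, 4 were above 1 CPM, or 66.7%, where 78.3% of all genes with a symbol were. FOXA2 was not distinguished from 1 CPM at 0.85 ± 0.84 CPM, and AFP had no counts (SD, n = 3). GATA6, a regulator of primitive endoderm, stood at 0.49 CPM in replicate 3, against 7.32 and 8.06 CPM in replicates 1 and 2. PDGFRA, also a primitive endoderm marker, stood at 3.68 CPM in replicate 3, against 9.29 and 9.20 CPM, while APOA1 stood at 4.41 CPM, against 5.12 and 3.53 CPM. GATA4 shifted far less than GATA6, at 3.87 CPM in replicate 3, against 4.13 and 4.62 CPM in replicates 1 and 2. These were 0.938 and 0.839 times its levels there.

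The 6 fibroblast or feeder markers with an ID, all above 1 CPM, summed to 478 CPM in replicate 3, against 682 and 638 CPM in replicates 1 and 2, most of it COL1A1. COL1A1, the alpha1 chain gene of collagen I, stood at 404 CPM in replicate 3, against 546 and 516 CPM in replicates 1 and 2, COL1A2 at 25.1 CPM, against 54.6 and 47.0 CPM, and PDGFRB at 27.05 CPM, against 39.4 and 38.7 CPM. DCN, the decorin gene, stood at 0.98 CPM in replicate 3, against 9.25 and 9.71 CPM in replicates 1 and 2, or 0.106 and 0.101 times those levels. POSTN, the lowest, averaged 3.99 ± 0.89 CPM (SD, n = 3). The 6 endothelial markers summed to 101 CPM in replicate 3, against 151 and 157 CPM in replicates 1 and 2, most of it PECAM1 at 65.7 CPM, against 116 and 121 CPM. KDR and TEK did not share that shift. KDR stood at 29.4 CPM in replicate 3, against 28.1 and 28.7 CPM in replicates 1 and 2, and TEK at 2.45 CPM, against 2.43 and 2.66 CPM. Of the endothelial markers of at least 1 CPM, 3 of 5 were lower in replicate 3 than in both others, where 50.7% of all genes were. CDH5, which defines endothelium, was below 1 CPM at 0.091 ± 0.028 CPM, so 5 of 6 endothelial markers were above. Of all genes with a symbol, 78.3% passed that level. The counts of fibroblast or feeder and of endothelial markers above it therefore set neither list apart. The pluripotent markers moved both ways. LIN28A and SALL4 stood at 350.3 and 58.5 CPM in replicate 3, against 674 and 135 CPM in replicate 1 and 725 and 134 CPM in replicate 2, while EPCAM stood at 1032 CPM in replicate 3, against 804 and 799.5 CPM in replicates 1 and 2. Whether cells of these other types were present was not tested. Nor was any part of such cells, or of the lower total count of replicate 3, in the lower basement membrane levels.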

How the data were processed

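Each library has a file of raw counts of reads per Ensembl gene, deposited without normalization. The submitters' processing notes name featureCounts 1.5.2, STAR 2.5.3a and Trim Galore 0.4.0. The build, annotation, strand setting and handling of shared reads were not given in the sources used here, so reads of overlapping or antisense genes cannot be told apart. Symbols came from a table that named 12660 of the 30811 IDs.

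Counts were scaled to CPM by TMM (edgeR 4.0.16, R 4.3.3). A two-sided quasi-likelihood F test against 1 CPM was made for the 23432 genes that had any count. Its model held an intercept alone, with dispersion from the trend, and the F values were formed from glmQLFit deviances, with a Poisson lower bound on p. Adjustment was by Benjamini-Hochberg, with a threshold of 0.05. The test was checked on simulated counts. DESeq2 1.42.0 was an alternative, with size factors centred on 1. Ratios between libraries had exact conditional 95% intervals of counts. Figures used matplotlib 3.10.9.

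The genes and lists were chosen with earlier results of these data known. All 9 genes were named, as were the other laminin and collagen IV chains reported. Some genes are not reported here and were left out of the counts of lists and trimers. Of each further list, the 3 highest genes, the lowest, and any not above 1 CPM were named. Beyond this rule some genes past 1.5-fold between libraries, and GATA4, COL7A1 and HMCN1, were named after their values were seen. Levels per kilobase and ratios per length were planned and not made, as no transcript or protein lengths of the annotation were at hand. No protein or promoter sequence was used.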

Additional observations from a re-analysis of the deposited data

How the results depend on the processing

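All 9 genes stayed above 1 CPM in each alternative run: size factors of DESeq2 (RLE), total counts only, filterByExpr, DESeq2, a level of 5 CPM, replicates 1 and 2 summed, and each replicate left out. Over the 8 lists, 81 genes were above the level, with a range of 66 (5 CPM) to 84 (without replicate 3). The 5 genes below it became 2 with filterByExpr, which leaves genes of few counts untested, and 17 at a level of 5 CPM. At a fold of 2, 1 of the 9 genes was lower in replicate 3 than in replicate 1, and 1 than in replicate 2, in place of 7 each. Among genes of at least 10 CPM, 11.3% and 11.9% were 1.5-fold lower in replicate 3 than in replicates 1 and 2. Against 5 CPM the direction turned for genes with a level between 1 and 5 CPM, whose log2 CPM was 1.95 (LAMB3), 1.85 (LAMA2), 0.80 (COL15A1), 0.55 (LOXL4), 0.43 (COLGALT2), 0.36 (DDR2), 1.46 (MMP9), 2.12 (APOA1), 1.33 (TEK) and 1.998 (POSTN). FOXA2 turned to a log2 level of 0.26 without replicate 3, in a range from -1.37 without replicate 2. Genes not distinguished from 1 CPM depended on single libraries. Without replicate 3, LOXL4, COLGALT2 and DDR2 were above it (edgeR adjusted p = 4.93e-08, 0.000115 and 5.37e-05). ITGA2 was below it without replicate 1 (edgeR adjusted p = 0.00974) and FOXA2 without replicate 2 (0.0190). P3H2 was below it without replicate 2 (edgeR adjusted p = 0.0122) and without replicate 3 (0.0188). Fits on 2 libraries ignore a gene's own spread. No paired analysis was possible because a single group was sequenced. Length-corrected alternatives were not run. Depth limits LAMB4, COL4A3 and COL4A4, which had at most 26 counts in a library.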

Other observations

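Heparan sulfate is the sugar chain that perlecan carries. Of the perlecan heparan sulfate synthesis list, 12 of 13 genes, or 92.3%, were above 1 CPM, where 78.3% of all genes with a symbol were. EXT2, a heparan sulfate polymerase subunit gene, stood at 108 CPM in replicate 3, against 163 and 161 CPM in replicates 1 and 2, and GLCE, which encodes a glucuronic acid epimerase, averaged 29.6 ± 6.27 CPM (SD, n = 3). SULF2, which encodes an extracellular enzyme that removes sulfate from heparan sulfate, stood at 9.25 CPM in replicate 3, against 34.2 and 36.8 CPM in replicates 1 and 2. HS3ST1, a heparan sulfate sulfotransferase gene, was below 1 CPM at 0.20 ± 0.023 CPM. In this list 5 of 12 genes of at least 1 CPM were 1.5-fold lower in replicate 3 than in both others, namely SULF2, SULF1, HS6ST2, XYLT1 and EXTL3, where 12.9% of all genes were.

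All 10 genes reported of the dystroglycan glycosylation list, whose products build the sugar chain by which dystroglycan binds laminin, were above 1 CPM, where 78.3% of all genes with a symbol were. B3GALNT2, DPM1 and POMT2 averaged 71.8 ± 8.31, 63.9 ± 8.72 and 44.0 ± 4.77 CPM (SD, n = 3). The lowest, POMK, stood at 2.65 CPM in replicate 3, against 7.38 and 6.07 CPM in replicates 1 and 2. In this list 1 of 10, POMK, was 1.5-fold lower in replicate 3 than in both others, a share near the 12.9% of all genes.

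Of the 14 genes of the protease and inhibitor list, 11 had an ID. All 11 were above 1 CPM, where 78.3% of all genes with a symbol were. MMP2, which encodes a gelatinase that cuts collagen IV, stood at 187 CPM in replicate 3, against 254 and 268 CPM in replicates 1 and 2. PLAT, the tissue plasminogen activator gene, and TIMP1, a metalloprotease inhibitor gene, were highest in replicate 3, at 132 CPM, against 113 and 110.1 CPM, and at 38.2 CPM, against 35.1 and 33.1 CPM. MMP9, the lowest, averaged 2.74 ± 0.22 CPM (SD, n = 3). In this list 3 of 11, MMP14, ADAMTS1 and HPSE, were 1.5-fold lower in replicate 3 than in both others, where 12.9% of all genes were.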
